A study of Homo sapiens
Mus musculus with 8 samples.

Results

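EL4-like cells were the larger of the pair of mouse cell populations in droplet libraries from a benchmark of single-cell RNA sequencing methods. In that benchmark 4 lymphocyte lines were mixed in equal parts and processed together. EL4 is a mouse T lymphoma line, and IVA12 is a mouse B cell line that shared every droplet run with it; the human lines Jurkat and TALL104 made up the rest of each mixture. The cells were untreated. A barcode was called EL4-like when it held at least 5000 unique molecular identifiers (UMIs, each counted as 1 captured transcript), more than 80% of them from mouse genes and under 10% from mitochondrial genes, and when Lgals1, S100a6 and Perp together made up at least 0.05% of its mouse UMIs and at least 5 times the sum of Epcam, Cd24a, Ctss and Ckap4. This rule found 8271 EL4-like cells among 23147 barcodes with at least 5000 UMIs, of which 13389 were mouse barcodes under the mitochondrial limit. With the opposite rule (at least 0.02% from the second set, and at least 5 times the first) 4586 cells were IVA12-like. The population was therefore chosen by measured values, and the naming genes, with Sox4 and S100a4, were left out of every result below.

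Mature T cells recognise antigen through the T cell receptor, which signals through the CD3 chains and the zeta chain CD247; the kinases Lck and Zap70 and the adaptor Lat carry that signal inwards. Helper and cytotoxic T cells are told apart by the coreceptors CD4 and CD8, and the lineage is kept by transcription factors such as Tcf7, Gata3 and Bcl11b. B lineage cells instead carry surface markers such as Cd79b and Ms4a1, and secreting cells of that lineage expand their endoplasmic reticulum and make the joining chain of immunoglobulins.

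Of the libraries analysed, 4 were made with the Chromium 3′ v3 kit, 2 with the 5′ v1 kit and 1 with the 3′ v2 kit, the last being replicate 2 of its group. They came from 4 cell mixtures, so that kit and mixture cannot be told apart between kits: replicates 1 and 3 of 3′ v3 shared a mixture, replicates 2 and 4 another, and so did the 5′ v1 replicates. Libraries of 1 mixture are technical replicates, and p-values may for that reason measure little more than technical spread. EL4 and IVA12 were also grown in different media, and line and medium cannot be told apart. EL4 was kept in RPMI with L-glutamine and 2-mercaptoethanol added. IVA12 was kept in DMEM with penicillin and streptomycin, and the paper lists no 2-mercaptoethanol for it. Total UMIs per library ranged from 24790710 to 251164949. The 4 libraries of 3′ v3 gave 1445, 550, 2678 and 1231 EL4-like cells in order of replicate number, the 5′ v1 libraries gave 1255 and 666, and the 3′ v2 library gave 446; this was 55.1 to 80.8% of the mouse barcodes under the mitochondrial limit. Their median depth lay between 25392 and 29430 UMIs, their median number of genes between 4111.5 and 5277, and their median mitochondrial share between 2.07 and 6.65%. In 3′ v3 replicate 4, 6 EL4-like barcodes exceeded 3 times the median depth, the largest with 691565 UMIs, and replicate 3 had 2 such barcodes. For 27 of 152 named genes, all called lower in EL4-like cells, the EL4-like level of replicate 4 was over 1.5 times that without those 6 barcodes, and 0 genes did so in another library, among sums with at least 20 UMIs of the gene. Any pair of libraries shared between 0 and 3 EL4-like barcodes. At the edges of the rule, the lowest naming sum inside was 0.0502% and the highest outside 0.0498%, while the nearest ratios of the sums were 5 inside and 4.71 outside. The mitochondrial limit left out 398 barcodes that met the other terms of the rule. IVA12-like cells numbered 83 in the 3′ v2 library and 376 to 1513 in the others. Their 3′ v2 sum held 2215536 mouse UMIs, against 10527166 to 52972815 in the others, so its low values rest on few UMIs.

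The first question was which genes set EL4-like cells apart from IVA12-like cells of the same libraries. UMIs were summed per library and line and expressed relative to all mouse UMIs of the sum, on the usual CPM scale, and 11553 mouse genes were tested with edgeR's quasi-likelihood test, with library as a block. A gene was called when its Benjamini-Hochberg adjusted p was under 0.05 and its change at least 2-fold. By this rule 2266 genes (19.6% of those tested) were higher and 2146 (18.6%) were lower in EL4-like cells, and the median log2 difference over all genes was 0.0015. These shares are the background against which the counts of each gene list below stand. Since the lines had been separated by naming genes, these tests ask of the other genes whether the difference exceeded the spread between libraries. Where a pair of ranges is joined by "against", the EL4-like one comes first. Log2 differences are EL4-like minus IVA12-like, from the fit over 7 libraries per line. The standard error (SE) given with them was derived from the log2 difference and the F statistic of the test.

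EL4-like cells carried RNA of the CD3 complex in every library. Cd3d, the delta chain, had 345 to 731 CPM in EL4-like cells (median 482) and 0.19 to 9.78 CPM in IVA12-like cells (median 2.26), a log2 difference of 7.59 ± 0.56 (SE). Cd3e had 58.1 to 187 CPM in EL4-like cells (median 136) and 0 to 3.36 CPM in IVA12-like cells (median 1.15), and the difference was 6.67 ± 0.52. The lowest EL4-like library thus lay well above the highest IVA12-like library for both chains. Cd3g had 149.7 to 360.1 CPM in EL4-like cells (median 187) and 0.903 to 6.0 CPM in IVA12-like cells (median 1.92). Cd247, the zeta chain, was much less abundant, at 9.33 to 19.1 CPM in EL4-like cells (median 14.3) and 0 to 0.796 CPM in IVA12-like cells (median 0.561). All 4 chains that could be tested were higher, with a median log2 difference of 6.54 and a largest adjusted p of 7.4e-07 (edgeR's quasi-likelihood test, Benjamini-Hochberg adjustment); the receptor constant genes were not analysed here. Thinned to 5000 mouse UMIs per cell, Cd3d was seen in 77.2 to 96.1% of EL4-like cells and 0 to 4.3% of IVA12-like cells, and unthinned it was seen in 8241 of 8271 EL4-like cells.

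**Figure D1:**
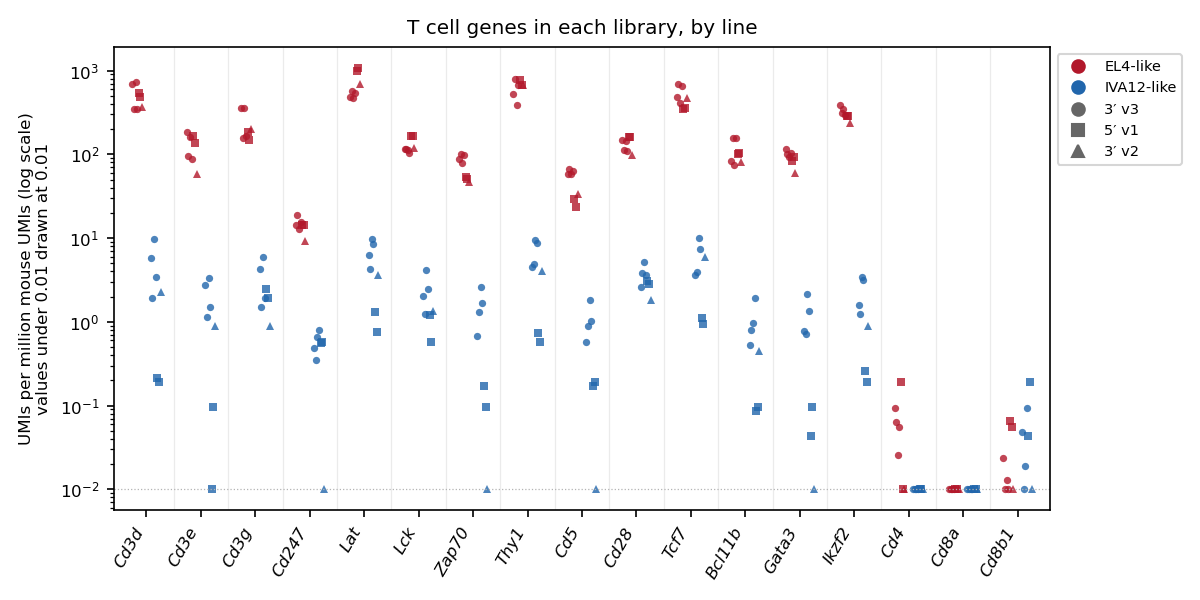
CPM of mouse UMIs (log axis) of T cell genes in each of the 7 libraries, with EL4-like and IVA12-like sums as separate points and values under 0.01 drawn at 0.01. The EL4-like points of Cd3d sit between 345 and 731 CPM, above all IVA12-like points, which end at 9.78 CPM, while Cd4 and Cd8a lie near or at the bottom of the axis in both lines.

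The coreceptors were close to absent from the RNA. EL4 was described by the study as a CD4+ T cell line, yet Cd4 gave 15 UMIs in 13 of 8271 EL4-like cells and 0 UMIs in IVA12-like cells. Cd8a gave 0 UMIs in EL4-like cells, which allows a share of up to 0.0363% of cells with a captured Cd8a UMI (3 counts of the total, for counting error, and no limit on cells that express the gene), and Cd8b1 gave 5 UMIs. The cells therefore matched the T lineage part of their label by the CD3 chains, whereas the CD4 part was not met in these counts.

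Genes that carry the receptor signal were also higher. Of 27 listed genes of proximal T cell receptor signalling, 25 passed the filter on low counts; 17 of these were higher and 2 lower, with a median log2 difference of 5.39 and a largest adjusted p among the called genes of 4.0e-04 (edgeR's quasi-likelihood test, Benjamini-Hochberg adjustment). Lat, the adaptor that gathers signalling proteins, had 472 to 1071 CPM in EL4-like cells (median 563) and 0.76 to 9.84 CPM in IVA12-like cells (median 4.24). The kinase Zap70 had 47 to 102 CPM (median 79.2) against 0 to 2.62 CPM (median 0.674). For neither gene did the lines overlap. Lck, the kinase bound to coreceptors, reached 104 to 165 CPM (median 116) in EL4-like cells, with a log2 difference of 6.10 ± 0.35. Fyn, a kinase of the same family as Lck that many other cells use, did not pass, at 23.6 to 47.3 CPM (median 38.8) against 23.9 to 60.8 CPM (median 45.9).

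Among T cell surface and costimulation genes, 9 of 17 tested were higher and 4 lower, out of 29 listed (median log2 difference 1.78). The largest adjusted p among the called was 0.033 (edgeR's quasi-likelihood test, Benjamini-Hochberg adjustment). Thy1, a surface glycoprotein of mouse T cells, had 385 to 794 CPM in EL4-like cells (median 669) and 0.57 to 9.48 CPM in IVA12-like cells (median 4.57), a log2 difference of 7.31 ± 0.59 (SE). The receptors Cd28, which gives the costimulatory signal, and Pdcd1, the PD-1 checkpoint receptor, were at 98.7 to 160.3 CPM (median 143) and 32.9 to 91.8 CPM (median 64.2) in EL4-like cells, and at 1.81 to 5.15 CPM (median 3.06) and 0 to 2.64 CPM (median 0.265) in IVA12-like cells. Cd5, which dampens receptor signalling, differed by 6.08 ± 0.26 on the log2 scale. Its relative Cd6 went the opposite way, with 0.428 to 0.85 CPM (median 0.469) against 9.03 to 15.5 CPM (median 10.3), so that a listed T cell marker was lower in the T line in every library. Ly6a (Sca-1), a surface protein of activated lymphocytes and stem cells, had the smallest difference of the higher genes named from this list, at 26 to 136 CPM (median 70.8) against 1.45 to 16 CPM (median 4.43).

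The transcription factors of the T lineage were split. Of 25 tested (31 listed), 16 were higher and 4 lower, with a median log2 difference of 2.72 and a largest adjusted p among the called of 0.0047 (edgeR's quasi-likelihood test, Benjamini-Hochberg adjustment). Tcf7, needed for T cell development, had 346 to 689.6 CPM in EL4-like cells (median 469) and 0.95 to 9.89 CPM in IVA12-like cells (median 3.89), and Ikzf2 (Helios) had 237 to 387 CPM (median 295) against 0.19 to 3.44 CPM (median 1.24). Gata3, Bcl11b and Tox, which act in T cell commitment and maturation, had log2 differences of 6.89 ± 0.42, 7.24 ± 0.36 and 7.21 ± 0.40. These genes were at or under 3.44 CPM in every IVA12-like sum apart from Tcf7, which reached 9.89 CPM. Id2, an inhibitor of E proteins, Batf, a partner of AP-1 factors, and Runx3, which acts in CD8 and effector cells, differed by 5.33 ± 0.25, 5.44 ± 0.32 and 3.02 ± 0.13. Lef1, a relative of Tcf7, was scarcer at 9.92 to 15.7 CPM (median 12.1). Maf gave 415 UMIs in 333 EL4-like cells and 0 in IVA12-like cells, at least 84.3-fold higher when the absent group is set to 3 counts in all. Ikzf1 (Ikaros), used by T and B lineages, was present in both lines and higher in EL4-like cells. It had 252 to 505 CPM (median 359) against 69.8 to 115 CPM (median 91.3).

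The 4 lower genes of this list were Notch1, its targets Hes1 and Dtx1, and Satb1. Notch1, the receptor that directs progenitors to the T lineage, had 0 to 2.03 CPM in EL4-like cells (median 0.539) and 26 to 72.3 CPM in IVA12-like cells (median 44.6). Hes1 and Dtx1 were at 0.0856 to 0.549 CPM (median 0.278) and 0 to 0.0823 CPM (median 0) in EL4-like cells, against 5.74 to 10.8 CPM (median 6.79) and 1.81 to 4.54 CPM (median 3.89) in IVA12-like cells. Notch1 and both targets were thus nearly unmeasured in the T line and low but present in the B line. Satb1, a chromatin organiser of thymocytes, differed by -5.56 ± 0.36 on the log2 scale, from 0 to 0.357 CPM (median 0.0969) in EL4-like cells.

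Cytokine receptors were more often higher (11 of 19 tested) than lower (3), out of 23 listed, with a median log2 difference of 1.57. Il7r, the receptor chain for the T cell survival cytokine IL-7, had 42.8 to 81.9 CPM in EL4-like cells (median 77.8) and 0 to 0.982 CPM in IVA12-like cells (median 0.702). Il2rg, the common gamma chain that pairs with it, was present in both lines, at 28.2 to 46.8 CPM (median 36.2) against 2.26 to 7.51 CPM (median 7.23). Ifngr1, a chain of the interferon gamma receptor, differed by 3.37 ± 0.082. Il6ra, the IL-6 receptor, was lower, at 4.31 to 8.49 CPM (median 7.32) against 11.1 to 40.4 CPM (median 31.1). Il2ra, the inducible chain of the IL-2 receptor, did not pass the filter, at 0.126 to 1.97 CPM (median 0.641) in EL4-like cells.

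Few cytokine genes were measurable: 10 of 29 listed passed the filter, of which 4 were higher and 4 lower. Tgfb1, a broadly acting inhibitory cytokine, had 128 to 290.1 CPM in EL4-like cells (median 160.0) and 1.81 to 10.2 CPM in IVA12-like cells (median 8.04). Tnfsf11 (RANKL) had 4.53 to 7.07 CPM (median 6.57) against 0 to 0.0962 CPM (median 0). Il10, an inhibitory cytokine, was lower, at 0.599 to 1.58 CPM (median 0.88) against 12.8 to 32.1 CPM (median 22.3). Mif, abundant in both lines, did not pass, with 558 to 1469 CPM (median 913) against 568 to 1305 CPM (median 1126).

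Receptors for homing and adhesion fell into opposite groups, 9 higher and 8 lower of 20 tested (27 listed, median log2 difference 0.52). Chemokine receptors were among the higher genes. Ccr9, which guides thymocytes and gut T cells, had 64.4 to 148 CPM in EL4-like cells (median 100.1) and 0.0431 to 2.11 CPM in IVA12-like cells (median 0.903). Ccr4 and Cxcr6 were at 7.16 to 17.6 CPM (median 13) and 8.22 to 15.7 CPM (median 9.9) in EL4-like cells and at no more than 0.283 CPM in any IVA12-like sum. Integrin chains and a receptor for egress were among the lower genes. Itgb1 had 0 to 0.937 CPM (median 0.323) against 33.3 to 52.4 CPM (median 41.7), and its partner Itga4 had 0 to 0.847 CPM (median 0.328) against 9.48 to 28.5 CPM (median 23.1). S1pr1, through which lymphocytes leave lymphoid organs, was at 0 to 0.141 CPM (median 0.0549) in EL4-like cells and 4.96 to 8.93 CPM (median 6.04) in IVA12-like cells. Selplg, the ligand of P-selectin, and the hyaluronan receptor Cd44 differed by -5.91 ± 0.36 and -1.83 ± 0.066. The largest adjusted p among the called genes of this list was 0.0013 (edgeR's quasi-likelihood test, Benjamini-Hochberg adjustment).

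**Figure D2:**
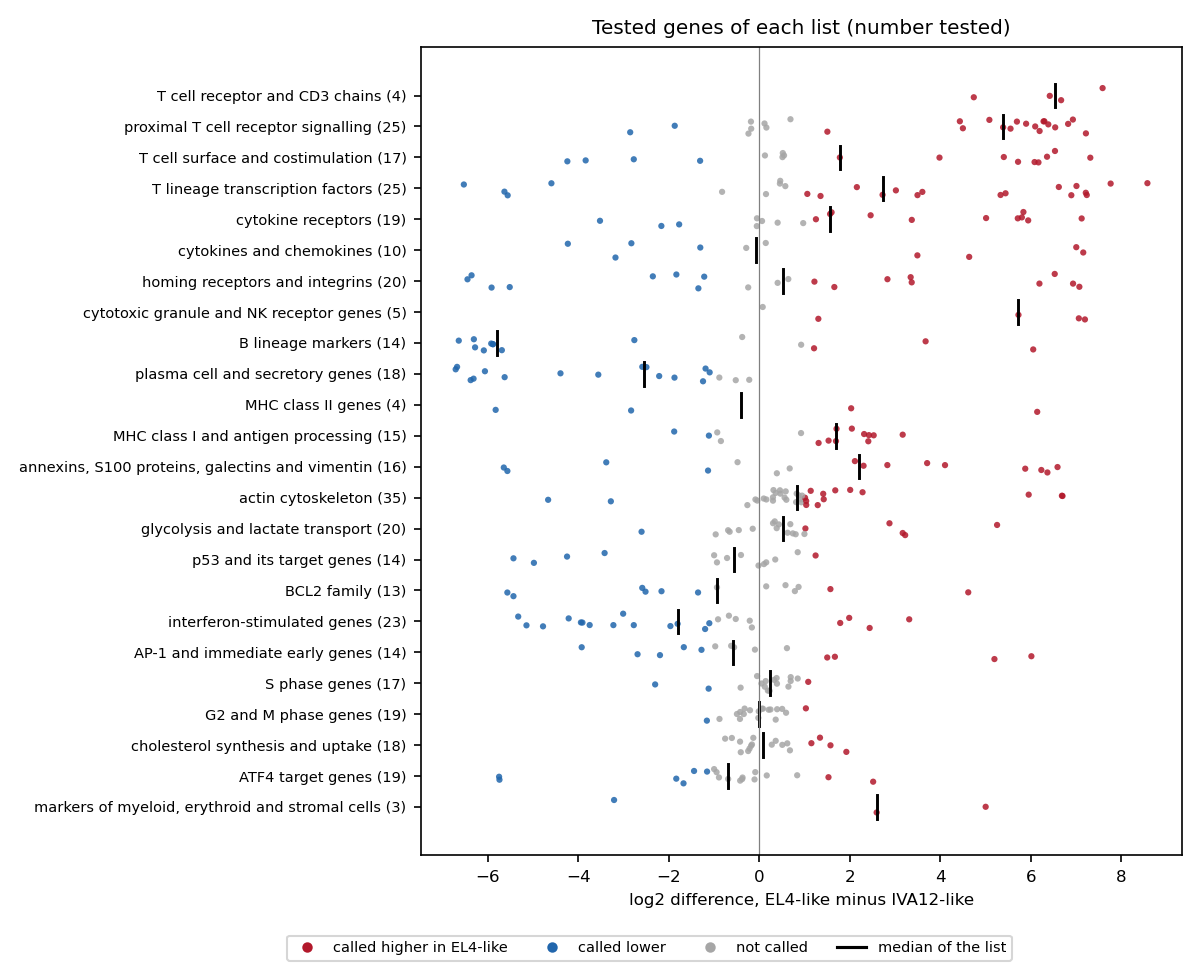
Log2 difference (EL4-like minus IVA12-like) of every tested gene in each fixed gene list, with the list's median; colours mark genes called higher, lower or neither. T cell lists sit to the right, with a median of 6.54 for the CD3 chains, and B lineage and plasma cell lists to the left, with medians of -5.78 and -2.54.

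Of the cytotoxic granule and natural killer receptor genes, 5 of 14 passed the filter and 4 were higher. Cst7, an inhibitor of granule proteases, had 41.1 to 103 CPM in EL4-like cells (median 66) and 0 to 0.868 CPM in IVA12-like cells (median 0.353). The granule protease Gzma had 12.1 to 41.7 CPM (median 20.1) against 0 to 0.944 CPM (median 0.38), and Gzmb had 1.38 to 21.8 CPM (median 8.23) against 0 to 0.14 CPM (median 0). The pore-forming protein Prf1 was not among them, with at most 0.077 CPM in EL4-like cells. Gzmb was also uneven from cell to cell, as described below.

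Markers of the opposite lineage served as a check on the population. Of 30 listed B lineage markers, 14 were tested, with 9 lower and 3 higher in EL4-like cells and a median log2 difference of -5.78; the summed level of the list was 271 to 626 CPM in EL4-like cells and 999.8 to 1643 CPM in IVA12-like cells. Ms4a1 (CD20) had 0 to 3.04 CPM in EL4-like cells (median 1.57) and 89.4 to 168 CPM in IVA12-like cells (median 156), and Cd79b, a signalling chain of the B cell receptor, had 0.668 to 8.94 CPM (median 2.64) against 206 to 345 CPM (median 219). Cd79a and Pax5 did not pass the filter in either line, and Pax5 was at most 1.45 CPM in EL4-like sums and 0.570 CPM in the IVA12-like ones. These markers of B cells were thus low in IVA12-like cells also. Factors of the lineage were also lower: Ebf1, needed for B cell commitment, was at 0 to 0.576 CPM (median 0.141) in EL4-like cells with a log2 difference of -5.88 ± 0.36, and Spi1 (PU.1), of B and myeloid cells, differed by -6.08 ± 0.38. The adaptor Blnk, which acts behind the B cell receptor, differed by -6.28 ± 0.46. Pou2af1, a coactivator of immunoglobulin genes, was lower but measured at 55.1 to 116 CPM (median 71.8) in EL4-like cells. The 3 higher genes were Irf8, a factor of B and myeloid cells, at 4.9 to 11.2 CPM (median 6.04) against 0 to 0.151 CPM (median 0.0883), the inhibitory receptor Cd22, at 0.514 to 2.06 CPM (median 1.13) against 0 to 0.259 CPM (median 0.0481), and Pou2f2 (Oct-2), abundant in both lines, at 190.5 to 491 CPM (median 284) against 99.3 to 223 CPM (median 119.9); with the 5′ v1 libraries alone Pou2f2 differed by 0.88 on the log2 scale and was not called. Pou2f2 was thus the main source of the list's sum in EL4-like cells.

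Plasma cell and secretory genes were lower as a group: 15 of 18 tested were lower and 0 higher, with the largest adjusted p among the called at 6.9e-05 and sums of 1027 to 1462 CPM in EL4-like cells and 3961 to 9962 CPM in IVA12-like cells (edgeR's quasi-likelihood test, Benjamini-Hochberg adjustment). Jchain, which joins secreted immunoglobulins, had 4.71 to 73.8 CPM in EL4-like cells (median 24.3) and 855 to 4361 CPM in IVA12-like cells (median 2884). Mzb1, an endoplasmic reticulum cochaperone of antibody-secreting cells, had 3.68 to 34.9 CPM (median 11.4) against 780.4 to 1878 CPM (median 1225). Its EL4-like level in 3′ v3 replicate 4 rested on few barcodes: 10 of them held 81.0% of 1274 Mzb1 UMIs, and without the barcodes over 3 times the median depth the level was 9.10 CPM in place of 34.9 CPM. For Jchain the levels were 24.9 CPM without them and 59.9 CPM with them. Xbp1 and Irf4, transcription factors of plasma cells that other cells also use, differed by -2.58 ± 0.14 and -3.56 ± 0.21. Markers of myeloid, erythroid and stromal cells were near absent: 3 of 21 measured passed the filter, and the summed list stood at 19.1 to 37 CPM in EL4-like cells and 12.6 to 40.3 CPM in IVA12-like cells, with 6 of the genes at 0 UMIs in EL4-like cells. The 3 were Pecam1, an adhesion molecule that some lymphocytes also carry, with 16.4 to 33.3 CPM (median 20.4) against 3.32 to 4.96 CPM (median 3.8), the macrophage lysozyme Lyz2, with 0.911 to 2.51 CPM (median 1.45) against 0 to 0.113 CPM (median 0), and Cd68, with 1.03 to 2.22 CPM (median 1.55) against 7.67 to 36.3 CPM (median 16.8). The myeloid genes were thus at trace level in EL4-like cells.

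Transcripts of each line were also found at low level in the other. The 15 genes with the largest positive differences were at 0.671 to 1.47% of their EL4-like level in the IVA12-like cells of the 3′ v3 libraries, at 0.158 to 0.188% in those of 5′ v1 and at 0.779% in the 3′ v2 library. In the opposite direction the 10 leading lower genes were at 1.14 to 3.33%, 0.149 to 0.293% and 0.562%. The 3.33% was that of 3′ v3 replicate 4, which stood at 1.21% without its barcodes over 3 times the median depth, an alternative chosen after seeing the data; the 3′ v3 range was then 1.14 to 2.36%. Human barcodes had a median mouse share of 0.317 to 3.68%. This residual level was thus lowest with the 5′ v1 kit in both directions. Both sets of genes were chosen for their large differences, so a low level in the other line follows from the choice. It is not a general level of the RNA of 1 line in the other. The part of free RNA in the differences was not tested.

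The 15 genes leading on the higher side held the T cell genes Cd3d, Ikzf2, Thy1, Bcl11b, Lat, Tox and Il7r and, beside them, 8 genes that are not T cell markers on any list. Stard10, a lipid transfer protein, was by far the most abundant, with 2450.0 to 3399 CPM in EL4-like cells (median 2616) and 9.02 to 32.9 CPM in IVA12-like cells (median 26.2). Nrgn (neurogranin), a calmodulin-binding protein best known from neurons, had 360.5 to 900.1 CPM (median 657) against 0.285 to 13.8 CPM (median 4.15). Timd2, a receptor that binds H-ferritin, had 96.2 to 249 CPM (median 140.5) against 0.19 to 1.93 CPM (median 0.707). Neither their lowest EL4-like library nor that of Rgs13, a regulator of G protein signalling at 48.3 to 129.9 CPM (median 77.5), came near the IVA12-like values. Spata6, Clec4d, a C-type lectin receptor, and Fam134b, a receptor for turnover of the endoplasmic reticulum, had log2 differences of 7.43, 7.16 and 7.14, and the predicted gene Gm4208 one of 7.18. On the lower side, Cdkn2a, which encodes the tumour suppressors p16 and p19Arf, had 1.28 to 11.7 CPM (median 3.77) against 322 to 635 CPM (median 514). Slpi, a secreted inhibitor of leukocyte proteases, had 0.39 to 48.9 CPM (median 11) against 710.4 to 1783 CPM (median 1505); without the deepest barcodes of 3′ v3 replicate 4, that library stood at 15.3 CPM of Slpi in place of 48.9 CPM. The transcription factors Mef2c and Tcf4, the RNA-binding protein Rbms1, the glutamate transporter Slc1a3 and the predicted gene Gm43291 differed by -6.69, -6.65, -6.55, -6.52 and -6.84.

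Genes of antigen presentation were mostly higher. For MHC class I and antigen processing, 10 of 15 were higher and 2 lower, with a median log2 difference of 1.70 and a largest adjusted p among the called of 2.0e-04 (edgeR's quasi-likelihood test, Benjamini-Hochberg adjustment). B2m, the light chain of class I molecules, had 1043 to 1285 CPM in EL4-like cells (median 1181) and 270.4 to 635 CPM in IVA12-like cells (median 443). Tap2, a peptide transporter, had 62.6 to 118 CPM (median 115) against 4.06 to 19.2 CPM (median 13.5). H2-K1 and H2-D1, the classical heavy chains, differed by 2.05 ± 0.19 and 2.42 ± 0.17, although reads that match several related class I genes can be misassigned or dropped in counting. The nonclassical H2-T23 (Qa-1) was lower, at 6.42 to 25.2 CPM (median 19.8) against 24.8 to 109.5 CPM (median 94.7). Of 10 class II genes 4 passed the filter: Cd74, the invariant chain, was lower, at 0.171 to 3.12 CPM (median 1.12) against 28.4 to 157 CPM (median 100.4), and H2-Oa was higher, at 1.8 to 8.84 CPM (median 4.53) against 0 to 0.151 CPM (median 0.0883). H2-Eb1 was higher by 2.03 ± 0.28 and H2-DMa was lower, with a log2 difference of -2.83 ± 0.19, both at low level, with medians of 3.66 and 0.355 CPM in EL4-like cells.

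Outside the naming genes, annexins, S100 proteins, galectins and vimentin gave 9 higher and 4 lower of 16 tested (21 listed). The largest adjusted p among the called was 0.032 (edgeR's quasi-likelihood test, Benjamini-Hochberg adjustment). The summed list had 1382 to 2239 CPM in EL4-like cells (median 1610) and 525 to 6445 CPM in IVA12-like cells (median 815), so the ranges overlapped. Anxa1 and Anxa2, calcium-dependent membrane binding proteins, had 24.3 to 81.5 CPM (median 46.1) and 126 to 447 CPM (median 262) in EL4-like cells, with log2 differences of 6.59 ± 0.30 and 6.37 ± 0.22. The filament protein Vim had 101 to 522 CPM in EL4-like cells (median 352) and 7.22 to 31.5 CPM in IVA12-like cells (median 20.8). S100a10, the partner of annexin A2, went the opposite way, at 0 to 0.878 CPM (median 0.129) against 8.12 to 21.7 CPM (median 16.5). The annexin was therefore present in EL4-like cells with little RNA of its partner.

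In the actin cytoskeleton 13 of 35 genes were higher and 2 lower, against 19.6 and 18.6% of all genes. The actin-sequestering thymosins stood out: Tmsb10 had 1057 to 3962 CPM in EL4-like cells (median 2648) and 25.3 to 69.96 CPM in IVA12-like cells (median 30.3), and Tmsb4x had 145 to 1034 CPM (median 692) against 2.18 to 14.4 CPM (median 2.95). EL4-like Tmsb4x was lowest in 3′ v3 replicates 2 and 4, which shared a mixture, at 175 and 145 CPM, and at or above 575 CPM in the other libraries. Evl, a regulator of actin filament growth, was higher at 2.32 to 7.79 CPM (median 3.25) against 0 to 0.113 CPM (median 0). Actb itself had an adjusted p of 2.6e-04 (edgeR's quasi-likelihood test, Benjamini-Hochberg adjustment) but a log2 difference of 0.93 ± 0.15, under the 2-fold limit, with 529.7 to 4747 CPM (median 3433) against 484 to 2127 CPM (median 1696).

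In glycolysis and lactate transport, 5 of 20 tested genes were higher and 1 was lower, against 19.6 and 18.6% of all genes, and 14 were not called; the higher share is near that of all genes. Slc2a3, the high-affinity glucose transporter GLUT3, had 176 to 497 CPM in EL4-like cells (median 260.0) and 4.31 to 14.6 CPM in IVA12-like cells (median 7.31). Gpi1, the glycolytic isomerase, had 939 to 2359 CPM (median 1339.7) against 91.2 to 236 CPM (median 183), and Hk1, a hexokinase, had 36.5 to 89.5 CPM (median 63.2) against 2.71 to 9.45 CPM (median 6.4). The transporter Slc2a1 (GLUT1), used in most cells, did not pass the fold limit, at a log2 difference of -0.96 ± 0.15, but passed it as lower in 6 of 21 alternatives (-1.10 to -1.01). Aldoc, an aldolase, was the lower gene, at 0.342 to 1.06 CPM (median 0.692) against 2.26 to 8.48 CPM (median 3.71). Hif1a, the oxygen-responsive regulator of several of these genes, was higher by 2.88 ± 0.17.

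Among p53 and its target genes, 1 was higher and 4 were lower of 14 tested (18 listed), against 19.6 and 18.6% of all genes, with a median log2 difference of -0.56. Mdm2, the ligase that degrades p53 and is itself induced by it, had 24.3 to 154 CPM in EL4-like cells (median 60.01) and 1448 to 2582 CPM in IVA12-like cells (median 2232). In 3′ v3 replicate 4 the EL4-like level of Mdm2 was 154 CPM, of which 10 barcodes held 50.6%, and 89.2 CPM without the deepest barcodes. Btg2, an antiproliferative target, had 18.2 to 50.002 CPM (median 30.3) against 441 to 914 CPM (median 592). Pmaip1 (Noxa) and Trp53inp1, targets that promote cell death, had 0.171 to 1.7 CPM (median 0.629) and 3.85 to 26.4 CPM (median 13.6) in EL4-like cells against 14 to 43 CPM (median 37.2) and 34.3 to 268 CPM (median 208) in IVA12-like cells. The 1 higher gene was Tnfrsf10b, a death receptor, at 3.45 to 8.41 CPM (median 6.68) against 0.903 to 3.99 CPM (median 3.0), which fell under the fold limit when cells were thinned to 5000 UMIs (log2 difference 0.97). Trp53 itself did not pass, with 74.6 to 210.3 CPM (median 189.8) against 132 to 185 CPM (median 172), nor did Cdkn1a (p21), with 27.8 to 70.7 CPM (median 31.7) against 25.7 to 74.9 CPM (median 32.5).

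In the BCL2 family 2 genes were higher and 6 lower of 13 tested, against 19.6 and 18.6% of all genes (largest adjusted p among the called 1.4e-04, edgeR's quasi-likelihood test, Benjamini-Hochberg adjustment). Bcl2, which blocks mitochondrial cell death, had 64.8 to 123 CPM in EL4-like cells (median 93.4) and 1.35 to 6.98 CPM in IVA12-like cells (median 3.99). The protective relatives Mcl1 and Bcl2l1 (Bcl-xL) were lower. Mcl1 had 63.1 to 157 CPM (median 107) against 378 to 736 CPM (median 707), and Bcl2l1 a log2 difference of -2.51 ± 0.078. Among the genes that promote death, Bak1 was higher by 1.57 ± 0.068 and Bcl2l11 (Bim) was lower, with a log2 difference of -2.16 ± 0.097.

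**Figure D3:**
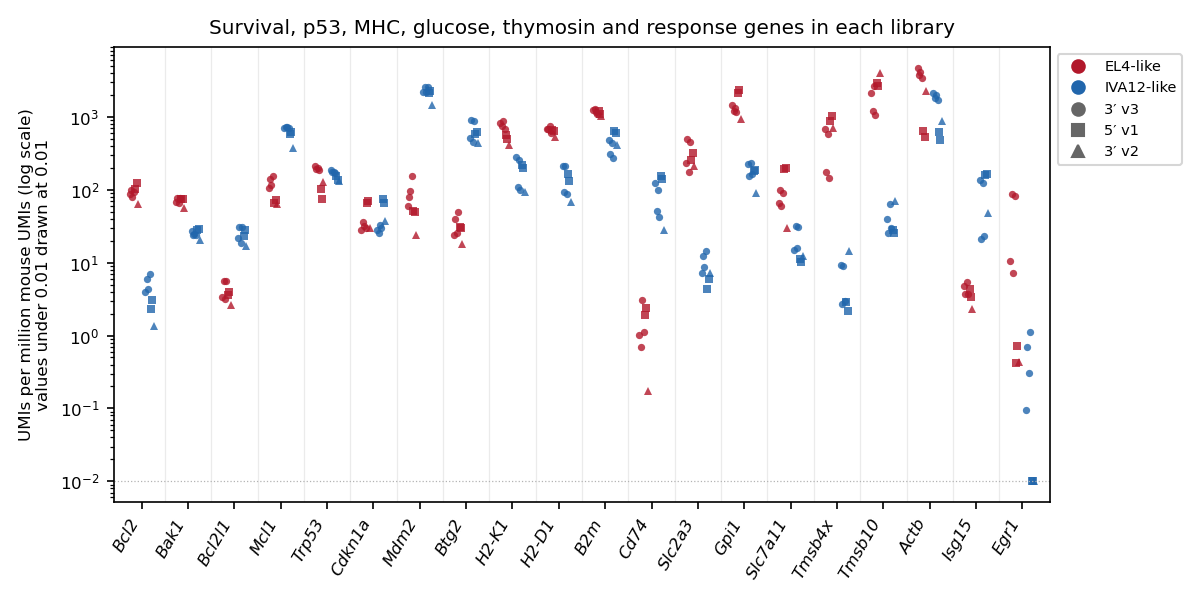
CPM of mouse UMIs (log axis) in each of the 7 libraries for named survival, p53, MHC, glucose, thymosin and response genes, EL4-like beside IVA12-like sums, with values under 0.01 drawn at 0.01. Bcl2 sits between 64.8 and 123 CPM in EL4-like cells and at or under 6.98 CPM in IVA12-like cells, and Mdm2 shows the opposite order.

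Interferon-stimulated genes were lower more often than higher, 14 against 4 of 23 tested, with a median log2 difference of -1.80. Isg15, a ubiquitin-like modifier, had 2.31 to 5.4 CPM in EL4-like cells (median 3.73) and 21.1 to 163 CPM in IVA12-like cells (median 125). Ifi27l2a had 2.64 to 16.3 CPM (median 7.53) against 124 to 530.4 CPM (median 338), and Irf7, an amplifier of the response, had 0.342 to 1.89 CPM (median 1.2) against 6.01 to 28 CPM (median 24). A minority moved the other way at low level, with Rsad2 (viperin) at 0.514 to 4.02 CPM (median 1.81) against 0.129 to 0.76 CPM (median 0.177) and Ifit2 at 3.16 to 8.86 CPM (median 4.84) against 0 to 2.75 CPM (median 1.64).

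Immediate early genes gave 4 higher and 5 lower of 14 tested (20 listed), against 19.6 and 18.6% of all genes. Egr1, a factor induced within minutes of receptor stimulation, had 0.42 to 87 CPM (median 7.3) in EL4-like cells. Within the 3′ v3 kit its level differed between mixtures. It stood at 87 and 82.1 CPM in 3′ v3 replicates 2 and 4 and at 10.7 and 7.3 CPM in replicates 1 and 3. The 5′ v1 and 3′ v2 libraries had no more than 0.724 CPM, and there kit and mixture cannot be told apart. Nr4a1, another gene induced by T cell receptor signals, had 43.7 and 29 CPM in 3′ v3 replicates 2 and 4 and 4.11 to 7.95 CPM elsewhere. The growth regulator Myc was lower, with 42.6 to 84.8 CPM in EL4-like cells (median 66.2) and 148 to 605 CPM in IVA12-like cells (median 292).

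Few cell cycle genes differed between the lines. Of the S phase genes 1 was higher and 2 lower of 17, and of the G2 and M phase genes 1 was higher and 1 lower of 19, both under the shares over all genes. The cyclin Ccne2, which acts at entry to S phase, was lower, at 2.27 to 5.16 CPM in EL4-like cells (median 3.48) and 14.1 to 25.7 CPM in IVA12-like cells (median 19.4). Of 18 tested genes of cholesterol synthesis and uptake, 4 were higher and 0 lower, with a median log2 difference of 0.073; the higher share is near the 19.6% of all genes. The synthesis enzyme Hmgcs1 differed by 1.57 ± 0.11 and the sterol carrier Stard4 by 1.92 ± 0.13. Among ATF4 target genes, which respond to amino acid shortage and stress, 2 were higher and 6 lower of 19. Slc7a11, the cystine importer, had 29.5 to 202 CPM (median 89.7) against 10.2 to 31.4 CPM (median 14.8), and Ddit3 (CHOP), a stress-induced transcription factor, had 19.8 to 72.5 CPM (median 21.8) against 8.12 to 13.5 CPM (median 11.9). Ddit3 was not called with the 3′ v3 libraries alone (0.95). Cth, which makes cysteine from cystathionine, was nearly missing, at 0.0856 to 3.35 CPM (median 0.503) against 16.2 to 85.5 CPM (median 54) in IVA12-like cells. Aldh1l2, a mitochondrial folate enzyme, and Psph, of serine synthesis, were lower, with log2 differences of -5.75 ± 0.28 and -1.83 ± 0.13. The cystine importer was thus higher and the cysteine-making enzyme lower in the same cells. EL4 and IVA12 had been grown in different media, with 2-mercaptoethanol listed for EL4 alone, and an effect of the medium was not tested.

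Ferritin RNAs were among the most abundant of EL4-like cells outside ribosomal protein and mitochondrial genes. By mean CPM over the 7 libraries, Fth1 led, followed by Eef1a1 and then Ftl1; Eef1a1 stood above Ftl1 in 6 libraries. Fth1, the heavy chain that oxidises iron for storage, had 7874 to 29101 CPM in EL4-like cells (median 8427) and 2513 to 3030.2 CPM in IVA12-like cells (median 2870.5), a log2 difference of 2.15 ± 0.27. Ftl1, the light chain, had 5976 to 16125 CPM (median 7815) against 1871 to 3513 CPM (median 1979), a difference of 2.09 ± 0.22. Together they made up 1.42 to 4.52% of mouse UMIs in EL4-like cells and 0.449 to 0.644% in IVA12-like cells, so that the ranges did not overlap. Both genes have processed copies in the genome, to which reads can be lost. Eef1a1, Ptma, Tpt1, Hsp90ab1, Mt1, Ybx1, Ppia and H2afz made up the rest of the 10 most abundant genes by mean CPM (by median CPM, Actb and Npm1 stood in place of Mt1 and H2afz), and none of these 8 reached 2-fold over all libraries, their log2 differences running from -0.65 to 0.80; with the 5′ v1 libraries alone Tpt1 (1.26) and Ybx1 (1.15) passed as higher. Ribosomal protein genes took 27.7 to 39.7% of mouse UMIs in EL4-like cells and mitochondrial genes 2.14 to 6.59%.

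No difference in the number of genes per cell passed the test. At 5000 mouse UMIs per cell, the median EL4-like cell showed 1811, 2005.5, 1785 and 2005 genes with 3′ v3, 1709 and 1707.5 with 5′ v1 and 1611.5 with 3′ v2, while the IVA12-like medians of the same libraries were 1848.5, 1980, 1844, 1983, 1896, 1899 and 1616. EL4-like cells had fewer genes in 5 libraries and more in 2, which were replicates 2 and 4 of 3′ v3. The mean difference was -61.7 genes (SD 92.2, n = 7 libraries), with p = 0.141 in an exact two-sided sign-flip permutation test whose smallest possible p is 0.0156. Libraries of 1 mixture are not independent; with the 4 mixtures as the units, chosen after seeing the data, the mean difference was -54.6 genes (SD 94.6), fewer in 3 mixtures and more in 1, and the same exact permutation test gave p = 0.375, its smallest possible p being 0.125.

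Within the EL4-like population, libraries of the same mixture, which also shared a kit, had the closest profiles. Pearson's r of log2(CPM + 1) across genes was 0.998 to 0.999 for the 3 pairs of libraries from 1 mixture and 0.973 to 0.990 for the 18 pairs from different mixtures, of which the 4 pairs within a kit gave 0.988 to 0.990 and the 14 pairs across kits 0.973 to 0.988, against 0.881 to 0.933 for the 49 pairs of an EL4-like and an IVA12-like sum. These values are across genes, which are not independent replicates. All mouse genes of the reference outside the naming genes, Sox4 and S100a4 were included. Of 27998 mouse genes, 11572 to 16402 were detected per sum, and genes at 0 in both sums raise r.

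The spread between single EL4-like cells was measured next. After thinning to 5000 mouse UMIs, 817 genes with a mean of at least 0.5 UMI per cell were ranked by variance over mean, by their mean rank over the libraries; this measure rises with a gene's mean at equal relative variation, so that abundant genes are favoured in the ranking, and it would be near 1 for counting error alone; the median gene stood at 1.08 to 1.19 in the 7 libraries. By mean rank Fth1 came first, at 5.94 to 42.6, followed by Ftl1, at 5.85 to 17.5. The order was not the same in every library: Malat1, a nuclear noncoding RNA, ran from 5.32 to 12.99 and stood above Fth1 in 3 of 7 libraries. In 5′ v1 replicate 2 the middle EL4-like cell held 130.5 Fth1 UMIs, with 61.5 at the 10th and 249.5 at the 90th percentile; in 3′ v3 replicate 1 the values were 43, 23 and 70. The other leading genes were the thymosin gene Tmsb4x (2.00 to 10.1), Mt1 (a metallothionein, which binds metal ions), Eef1a1, the actins Actg1 and Actb, the redox protein gene Txn1 and 6 mitochondrial genes. The membership rule kept the mitochondrial share under 10%. That limit narrowed the spread of the mitochondrial genes and may affect the correlation between them. Fth1 and Ftl1 varied together, with Spearman's rho across the cells of a library between 0.457 and 0.682, and mt-Co1 and mt-Atp6 with a rho of 0.391 to 0.502. Tmsb4x and Tmsb10 were more loosely tied, at 0.106 to 0.411, and Fth1 with Tmsb4x gave -0.0897 to 0.182. The cells of a library share its depth and free RNA, and these correlations are given as descriptions.

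**Figure D4:**
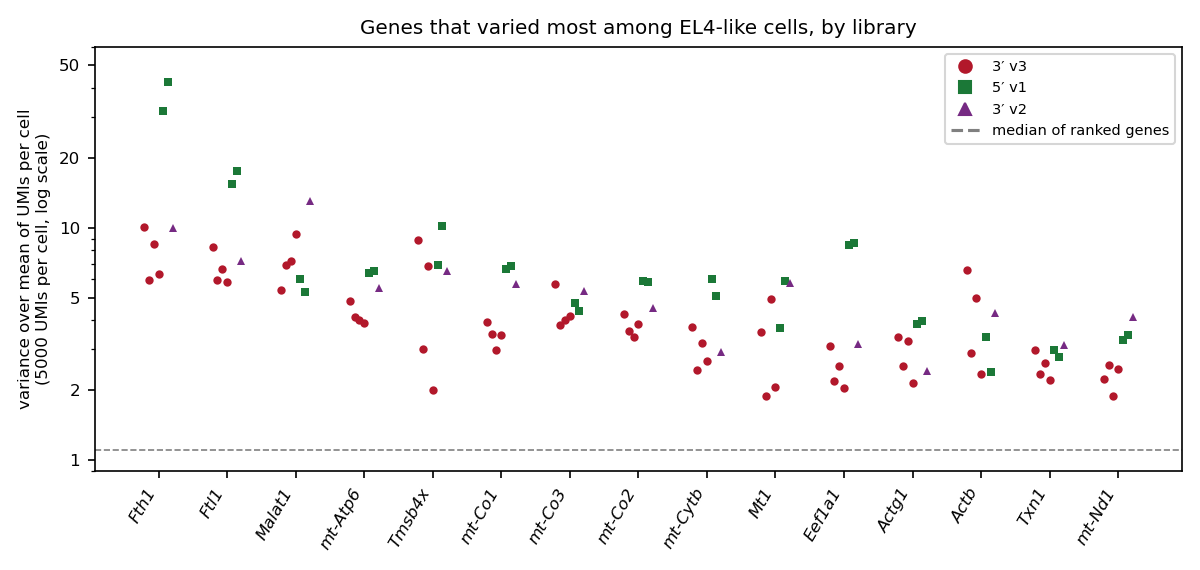
Variance over mean of UMIs per EL4-like cell, at 5000 mouse UMIs per cell (log axis), for the 15 genes ranked highest, with 1 point per library. Fth1 runs from 5.94 to 42.6 and Ftl1 from 5.85 to 17.5, while the median gene lies between 1.08 and 1.19 in all libraries.

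A few cells carried very high counts of an effector gene. Il17a, a cytokine of the T helper 17 subset, gave 5195 UMIs in 166 of 8271 EL4-like cells, and 48 cells held at least 10 of them. A single cell of 3′ v3 replicate 1 held 3316 Il17a UMIs among its 56267 mouse UMIs, or 89.8% of that library's Il17a UMIs. With that cell the library stood at 86.6 CPM and without it at 8.85 CPM. The other libraries ran from 0.247 to 12.3 CPM. Replicate 3 of 3′ v3 had 62 cells with an Il17a UMI, the highest with 185. Gzmb gave 2458 UMIs in 294 EL4-like cells, up to 286 in a cell. With 5′ v1, 111 of 1255 and 80 of 666 EL4-like cells held a Gzmb UMI. With 3′ v3 these were 27 of 1445, 3 of 550, 63 of 2678 and 5 of 1231, and with 3′ v2 5 of 446. In all, 53 cells held at least 10 Gzmb UMIs, 17 and 11 of them in the 5′ v1 libraries. At least 10 UMIs of both genes were held by 5 cells. Whether such barcodes hold more than 1 cell was not tested.

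The next question was whether the difference between the lines was the same with the 5′ v1 and 3′ v3 kits. In a test of the interaction between line and kit over 11866 genes, 579 genes (4.88%) had a difference at least 2-fold higher with 5′ v1 and 597 (5.03%) at least 2-fold lower. Scaled by library size alone, in place of edgeR's normalization factors, the split was 430 higher and 870 lower, and the median over genes moved to -0.16. The counts also rested on both 5′ v1 libraries: 283 genes were higher and 370 lower without replicate 1, and 331 higher and 272 lower without replicate 2. Thinned to 5000 UMIs per cell, 329 were higher and 331 lower. Of the 579 higher genes, 454 averaged under 5 CPM in at least 1 of the lines, as did 319 of the 597 lower genes. In many of these calls 1 line was therefore low, and its level was not compared with the residual level given above. Cd3d is an example: it had 345 to 731 CPM with 3′ v3 and 482 to 533 CPM with 5′ v1 in EL4-like cells, against 1.94 to 9.78 and 0.19 to 0.216 CPM in IVA12-like cells, with an interaction of 4.73 ± 0.44 on the log2 scale; the EL4-like ranges of the kits overlapped and the IVA12-like ranges did not.

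Ferritin was different in this respect. Fth1 had 8179 to 9332 CPM with 3′ v3 and 25088 to 29101 CPM with 5′ v1 in EL4-like cells, against 2513 to 3030.2 and 2870.5 to 2909 CPM in IVA12-like cells, a log2 interaction of 1.72 ± 0.0791 (SE), and was 7874 CPM in the EL4-like cells of the 3′ v2 library. Ftl1 had 5976 to 7815 CPM with 3′ v3 and 13902 to 16125 CPM with 5′ v1 in EL4-like cells, against 1889 to 2304 and 1871 to 2057 CPM in IVA12-like cells. The kits thus differed for ferritin mainly in EL4-like cells, in genes that were abundant in both lines. Trib3, a pseudokinase induced in the ATF4 response, had 8.09 to 12.2 CPM with 3′ v3 and 38.9 to 40.1 CPM with 5′ v1 in EL4-like cells, against 31.7 to 41.3 and 24.5 to 25.1 CPM in IVA12-like cells, so that the order of the lines was opposite in these kits (interaction 2.72 ± 0.13). In the 3′ v2 library the lines were close for Trib3, at 7.96 CPM (EL4-like) and 7.22 CPM (IVA12-like). Fth1 and Trib3 were among the 5 genes of smallest p, with Ly6a, Erdr1 and the noncoding gene 2700038G22Rik. Ly6a had 50.2 to 136 CPM with 3′ v3 and 70.8 to 78.2 CPM with 5′ v1 in EL4-like cells, against 1.45 to 5.1 and 15.3 to 16 CPM in IVA12-like cells. For this gene the kits did not overlap in IVA12-like cells and overlapped in EL4-like cells. Erdr1 had 194 to 275 CPM with 3′ v3 and 79 to 97.2 CPM with 5′ v1 in EL4-like cells, against 49.5 to 65.9 and 79.4 to 82.5 CPM in IVA12-like cells. The values of 2700038G22Rik were 21.8 to 42.7 CPM with 3′ v3 and 20.1 to 22.5 CPM with 5′ v1 in EL4-like cells, against 27.8 to 55.7 and 170.2 to 181 CPM in IVA12-like cells, so that its excess in IVA12-like cells was larger with 5′ v1. Because the kits were used on different mixtures, a difference between kits cannot be told apart from one between mixtures.

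**Figure D5:**
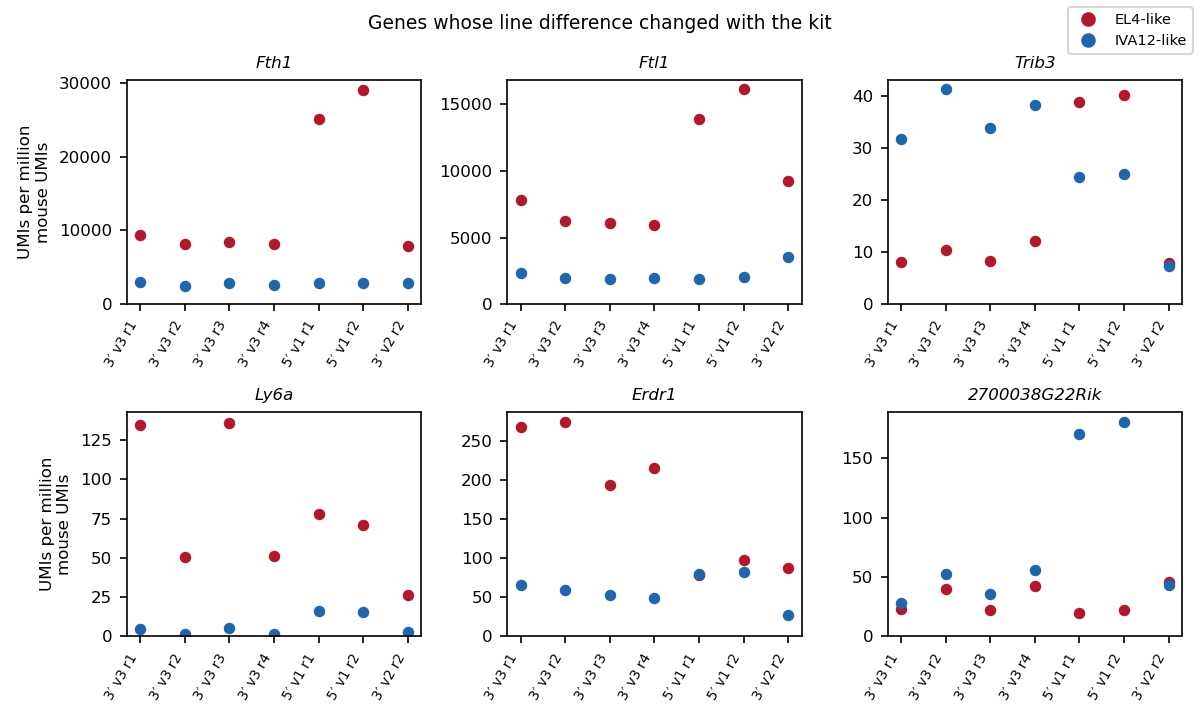
CPM of mouse UMIs of the 5 genes with the smallest p for the interaction of line and kit, and of Ftl1, by library and line. Ftl1 was added as the second ferritin gene and is not among those 5. In EL4-like cells Fth1 lies at 8179 to 9332 CPM with 3′ v3 and at 25088 to 29101 CPM with 5′ v1; in IVA12-like cells it lies between 2513 and 3030 CPM.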

How the data were processed

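The authors deposited UMI counts per gene and barcode for every barcode, made with Cell Ranger 3.0.2 on the joint hg19 and mm10 reference of version 1.2.0 after reads had been downsampled, which lowers the UMIs per cell. The kits read opposite transcript ends, so a gene's level can depend on the kit. Not analysed here was replicate 1 of the 3′ v2 kit. The members, gene lists and tests were chosen with earlier results of these data known. Counts of mouse genes were summed per library and line and tested with edgeR 4.0.16 in R 4.3.3 (TMM, filterByExpr, robust quasi-likelihood fit, library as a block, Benjamini-Hochberg adjustment over all genes tested); sums were used because cells are not replicates. The scripts were tested on simulated data. Named were genes of 24 lists, the 15 leading higher and 10 leading lower genes (at least 50 CPM in the higher line, same direction in every library), the 10 most abundant, the 15 most variable and the 5 of smallest interaction p, without the 9 genes of the naming rule and label. Some listed genes are not reported here. No doublet caller was run. Limits given for absent genes cover counting error alone, while the SE also holds the spread between libraries in the fit. Alternatives were DESeq2 1.42.0, other scalings, filters, depths and naming limits, each kit alone, summed mixtures, and each library left out.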

Additional observations from a re-analysis of the deposited data

Results flagged for a closer look

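In the 4 EL4-like sums of the 3′ v3 kit, 1 library stood apart from the other 3 for 4 of 145 named genes. For independent libraries chance flags about 1 gene in 20, a larger share than this. These libraries are not all independent, because replicates 1 and 3 shared a mixture, as did replicates 2 and 4. The library that stood apart was replicate 1 for each of these genes. The gap of that library, divided by the whole range, was 0.862 for Il17a (0.247, 1.19, 12.2 and 86.6 CPM), where the high value rested on a single cell. It was 0.848 for Stard10 (2478, 2514, 2616 and 3390 CPM), 0.867 for Ftl1 (5976, 6123, 6221 and 7815 CPM) and 0.834 for Malat1 (2007, 3755, 3773 and 4102 CPM). 

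For 53 of 146 named genes, the difference between the lines itself differed between the 5′ v1 and 3′ v3 kits in edgeR's quasi-likelihood test of the interaction, called with a Benjamini-Hochberg adjusted p under 0.05 and at least 2-fold. Over all genes tested, 4.88% were called higher and 5.03% lower; the named genes were chosen largely for large differences between the lines, so the counts are not comparable. Of these 53 genes, 30 lost the call in at least 1 of 10 alternatives, mostly with the fitted difference still at least 2-fold. Values are log2 interactions, 5′ v1 minus 3′ v3, and kit and mixture cannot be told apart. The limit of 5 CPM used below does not separate genes that both lines express from genes of 1 line. Slpi, Jchain, Mzb1 and Cdkn2a in EL4-like cells stood at a small part of their IVA12-like level. So did Nrgn, Stard10, Tmsb4x and Tmsb10 in IVA12-like cells, relative to EL4-like cells. The part of free RNA in these values was not tested.

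Among genes that averaged at least 5 CPM in both lines, those with a higher difference under 5′ v1 were Nrgn 2.84, Trib3 2.72, Tmsb4x 2.65, Slc7a11 2.54, Stard10 2.06, Ddit3 1.76, Fth1 1.72, Tmsb10 1.4, Ftl1 1.4, Slc2a3 1.13, Malat1 1.01, Gpi1 1.00. Among genes under 5 CPM in at least 1 line, they were Cd3e 6.42, Gzmb 6.07, Tox 4.85, Cd3d 4.73, Gata3 4.39, Ccr9 4.34, Cst7 3.96, Thy1 3.94, Lat 3.86, Spata6 3.86, Rgs13 3.70, Pdcd1 3.63, Bcl11b 3.61, Ikzf2 3.31, Il7r 3.30, Gm4208 3.19, Timd2 3.06, Zap70 2.91, Batf 2.77, Fam134b 2.67, Clec4d 2.58, Anxa1 2.48, Lck 2.15, Id2 1.70, Bcl2 1.44, H2-Eb1 1.37. 

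Lower differences under 5′ v1, among genes of at least 5 CPM in both lines, were those of Slpi -4.12, Jchain -2.87, Mzb1 -2.81, Ifi27l2a -2.51, Ly6a -2.49, 2700038G22Rik -2.46, Cdkn2a -2.13, Erdr1 -1.80, Mif -1.10. Those among genes under 5 CPM in at least 1 line were S1pr1 -5.22, Blnk -2.53, Cd79b -2.40, Gm43291 -2.30, Selplg -2.23, Ms4a1 -2.14. Cd3e and Gzmb had the values farthest from 0, all in genes that 1 of the lines nearly lacked. For Gzmb the share of EL4-like cells with a UMI was also higher with 5′ v1, as given above.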

How the results depend on the processing

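Leaving out 1 library at a time gave 2217 to 2356 genes higher, 2088 to 2324 lower and 8561 to 9114 at an adjusted p under 0.05 in the comparison of the lines. Without a filter on low counts 3514 genes were lower, and with 100 cells per sum 1487 were higher; the latter holds fewer UMIs per sum. No called gene was called in the opposite direction under any alternative. Of the 145 named genes, 12 changed their call or the sign of their difference in at least 1 of 21 alternatives. Eef1a1 changed in sign alone, to a log2 difference of 0.078 with the 5′ v1 libraries alone, and the cause was not tested. The others were Pou2f2, Tnfrsf10b, Ddit3, Malat1 (-0.34) and Erdr1 (0.32), which lost their call in 1 alternative each, the last 2 with the 5′ v1 libraries alone, and Actb, Slc2a1, Trib3, Tpt1, Ybx1 and 2700038G22Rik, which gained one in 1 to 9 alternatives.

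The interaction with kit was less stable. Leaving out 1 library gave 1455 to 4178 genes at an adjusted p under 0.05, 283 to 616 higher and 272 to 765 lower. Without 5′ v1 replicate 1 the values were 1562, 283 and 370, and without replicate 2 they were 1455, 331 and 272, with a lone 5′ v1 library assumed to vary like the others. Thinned to 5000 UMIs per cell, they were 2202, 329 and 331. Both 5′ v1 libraries were therefore needed for the counts given. Of the 53 named genes with a called interaction, none turned its direction, but 30 lost the call in at least 1 of 10 alternatives: 23 without 5′ v1 replicate 1, 21 without replicate 2, 14 without a filter on low counts, 13 when thinned to 5000 UMIs and 1 to 9 under the others. Zap70 lost it in 7, Ms4a1 and Blnk in 6, and Gpi1, Malat1, H2-Eb1 and Gm43291 in 5; 23 genes lost it in none. In 82 of the 96 lost calls the fitted difference was still at least 2-fold and the adjusted p was no longer under 0.05; in the other 14 it was under 2-fold, as for Gpi1 (0.86 to 0.99) and Malat1 (0.87 to 1.00). Where its call was lost, Zap70 ran from 1.81 to 3.44 and Blnk from -3.77 to -1.55.

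The mean difference in genes per cell ran from -76.3 to -40.1 without 1 library (exact permutation p 0.0938 to 0.281). The lines were paired within libraries by a library block, and without that block 6787 genes, against 8896 with it, had an adjusted p under 0.05. Libraries of different kits could not be paired with each other, because equal replicate numbers of different kits mark no shared sample. Depth limits what can be said of genes under a few CPM.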
